A study of Mus musculus with 2 samples.

Results

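The lysosomal proteases and protease inhibitors described here are 10 genes: Ctsa, Ctsb, Ctsc, Ctsd, Ctsh, Ctsl and Ctsz, which encode cathepsins, Lgmn, which encodes legumain, and Cst3 and Cstb, which encode cystatin C and cystatin B. They were taken as a fixed list by gene symbol, and all 10 were found among the 31053 features of both count matrices. The RNA came from cells of the heart that carried the leukocyte surface protein CD45 and were sorted for it by flow cytometry. The TAC group was wild type C57BL/6 mice aged 10 weeks with transverse aortic constriction, an operation that narrows the aorta and loads the left ventricle with pressure. The sham group was wild type C57BL/6 mice of the same age with the operation but no constriction. The labels give 6 mice per group and neither the time after surgery nor the sex. Each group was 1 library made on the 10x Genomics droplet platform, in which the mice of a group cannot be told apart. The question was how the level of each gene differed between macrophage subsets and other cell types of these hearts, and between TAC and sham.

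Lysosomes digest proteins taken up from outside the cell and proteins delivered from within it. Most cathepsins are cysteine proteases: cathepsins B and L cut within a chain, cathepsin C takes dipeptides from the amino end and activates the serine proteases of granules, cathepsin H trims the amino end and cathepsin Z the carboxyl end. Cathepsin D is an aspartic protease, and cathepsin A is a serine carboxypeptidase that also protects other lysosomal enzymes. Legumain cuts after asparagine and helps other cathepsins mature. Cystatin C is secreted and inhibits cysteine cathepsins outside the cell and in the endocytic route, and cystatin B does so mainly in the cytosol. In the heart, resident macrophages clear debris, and cathepsins released by macrophages and fibroblasts can cut matrix proteins.

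On GRCm38, the assembly that mm10 names, the members are protein-coding genes spread over 7 chromosomes. Ctsa lies at chr2:164832873-164841032, Ctsz at chr2:174427493-174439039 and Cst3 at chr2:148871722-148875692. Ctsc lies at chr7:88278085-88310888 and Ctsd at chr7:142375911-142388038. Ctsh lies at chr9:90054152-90076089, Cstb at chr10:78425669-78427622, Lgmn at chr12:102394084-102439813, Ctsl at chr13:64359337-64370890 and Ctsb at chr14:63122462-63145923. Ctsd shares its strand with the overlapping gene Gm49369, which had 0 UMIs (unique molecular identifiers, counts of captured RNA molecules) in the kept cells of both libraries. Ctsl shares its strand with the overlapping processed pseudogene Gm49230, which is not among the features of the matrices. Ctsa, Ctsb, Ctsc, Ctsl and Ctsz overlap genes on the opposite strand, and the sources used here do not state whether the counting was stranded.

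RefSeq promoter windows of GRCm38.p6, from 250 bases before to 50 after a transcript start, were matched for 7 of the 10 genes, with 9 windows in all, since Ctsa and Lgmn have 2 each. Ctsb, Ctsh and Cstb had no entry. The palindrome CACGTG is the core of the word bound by the lysosomal transcription factors TFEB and TFE3. It was in 4 of these 9 windows (1 each of Ctsa, Ctsd, Ctsl and Lgmn), and in 7.15% of all 32817 promoter windows of the same length. The longer palindrome TCACGTGA, which contains CACGTG, was in windows of Ctsa and Ctsd, and in 0.975% of all windows. The word TTCNNNGAA, bound by STAT factors, was in the window of Ctsc alone among the 7 genes and in 8.29% of all windows. These palindromes read alike on both strands. The Ctsa and Ctsd windows with CACGTG hold it at 2 places each, and 1 place is shown for each gene. The 4 stretches below are shown because they hold the shared word. Each is 30 bases long, 5′ to 3′ on the strand of the gene, with CACGTG in capitals. They lie at chr2:164833749-164833778 on the plus strand for Ctsa, and on the minus strand at chr7:142387908-142387937 for Ctsd, chr13:64370739-64370768 for Ctsl and chr12:102439124-102439153 for Lgmn.
Ctsa: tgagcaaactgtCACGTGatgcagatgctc
Ctsd: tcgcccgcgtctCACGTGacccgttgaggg
Ctsl: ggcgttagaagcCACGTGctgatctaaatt
Lgmn: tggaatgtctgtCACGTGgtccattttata
A match describes the letters of the window and says nothing of binding. In all macrophages, compared below, Lgmn was higher in TAC and Ctsa, Ctsd and Ctsl were lower. In the MHC class II gate all 4 genes with this word were higher, with Ctsa at a log2 ratio of 0.04. The part of the word in these ratios was not tested.

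Kept cells numbered 5601 in the TAC library and 4169 in the sham library, with 90373295 and 50738794 UMIs and median depths of 13892 UMIs in TAC and 9536 in sham. The median share of mitochondrial UMIs was 4.42% in TAC and 8.02% in sham. Clusters were named by marker genes, and each name means only that the cells resemble that type. Macrophages numbered 2528 in TAC and 2723 in sham, monocytes 353 and 69, T cells 302 and 152, fibroblasts 248 and 212, and endothelial cells 408 and 112. Neutrophils numbered 1209 in TAC and 27 in sham and were not compared between groups. UMIs of Ptprc, the gene for CD45, were found in 87.3% of TAC and 87.5% of sham cells, in 16.9% and 18.4% of fibroblasts, and in 19.1% of TAC and 39.3% of sham endothelial cells. Of the 14 macrophage markers, 13 in TAC and 12 in sham were detected in at least 50% of macrophages. The main macrophage clusters were largely of 1 library each: cluster 12 held 1007 TAC and 12 sham cells, cluster 13 held 792 TAC and 19 sham cells, and cluster 1 held 94 TAC and 1412 sham cells. With 1 library per group, library and treatment cannot be told apart. No test across animals could be made, so every interval below is a 95% interval that covers counting error only. Levels are given as CPM, the UMIs of a gene relative to all UMIs of the cells of a class. They are compared within a gene, not between genes, since they are not scaled to transcript length.

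Among named classes, macrophages were the richest in Ctsb, Ctsc, Lgmn and Ctsa in both libraries, while Ctsl was highest in fibroblasts and Ctsd was as high or higher in several other cell types of the TAC heart. Since many barcodes of other classes also carried C1qa, C1qb and C1qc, the macrophage complement genes, levels in other cell types were read in barcodes with under 20 of these UMIs per 10000. In TAC these C1q-low cells were 220 monocytes, 684 neutrophils, 87 T cells, 36 NK cells, 226 fibroblasts, 370 endothelial cells and 23 mural cells. In sham at least 20 such cells were left for monocytes (33), fibroblasts (183) and endothelial cells (69).

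**Figure D1:**
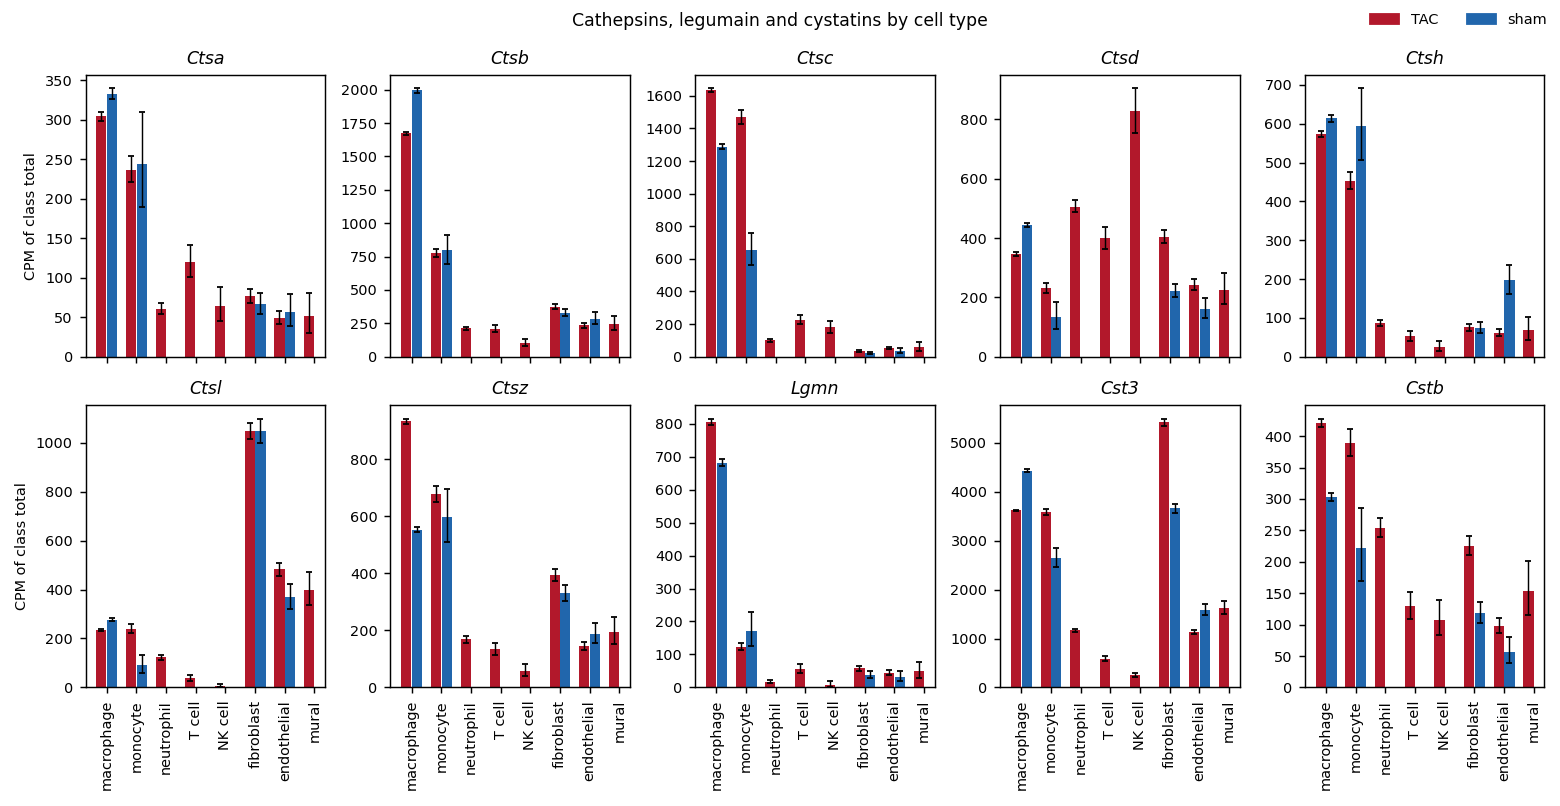
CPM of each of the 10 genes (y axis, linear, own scale per gene) in macrophages and in C1q-low cells of the other types (x axis), TAC bars in red on the left and sham bars in blue on the right, with 95% Poisson intervals for counting error. A missing bar means under 20 cells. Ctsl is highest in fibroblasts at 1047 CPM in both libraries, and Lgmn is far higher in macrophages than in any other type shown.

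Among the cysteine cathepsins, Ctsb stood at 1674 CPM in TAC and 1996 in sham macrophages. The next type was monocytes, at 774 in TAC and 798 in sham, and then fibroblasts at 375 and 329. In TAC the Ctsb intervals of mural cells, endothelial cells, neutrophils and T cells overlapped their neighbours, between 246 and 207 CPM, and NK cells were lowest at 103. Ctsc was high in mononuclear phagocytes and low elsewhere: it stood at 1635 in TAC and 1288 in sham macrophages and at 1469 and 656 in monocytes. T cells (225) and NK cells (181), which use cathepsin C to activate granzymes, came next in TAC with overlapping intervals. Fibroblasts had 34.0 CPM of Ctsc in TAC and 22.6 in sham.

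Ctsl ran the other way. Fibroblasts had 1047 CPM in TAC (interval 1015 to 1080) and 1047 in sham (998 to 1098), which was 4.46 and 3.78 times the macrophage level of 235 in TAC and 277 in sham. Endothelial cells followed with 482 in TAC and 370 in sham, while TAC monocytes (240) and TAC macrophages had overlapping intervals. T cells had 38.1 and NK cells 5.32 CPM in TAC. Ctsh was mostly a gene of macrophages (574 in TAC, 614 in sham) and monocytes (453 in TAC, 594 in sham), and in sham their intervals overlapped. Ctsz stood at 932 in TAC macrophages, followed by TAC monocytes at 679 and fibroblasts at 394. In sham, monocytes (597) and macrophages (553) overlapped, and fibroblasts had 331.

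Lgmn, the legumain gene, stood further above the next type, monocytes, than the other genes that were highest in macrophages: 806 in TAC and 682 in sham macrophages, against 124 and 171 in monocytes and 57.7 and 37.8 in fibroblasts. In TAC, legumain RNA thus set macrophages apart from monocytes more than any cathepsin did. TAC monocytes had 0.153 of the TAC macrophage level for Lgmn and between 0.462 and 1.02 of it for the 7 cathepsins. In sham this share was 0.251 for Lgmn and between 0.304 and 1.08 for the cathepsins. The sham shares rest on 33 monocytes, with Lgmn at 171 CPM (interval 126 to 228) and Ctsd at 135 (95 to 186). The order of these 2 genes is therefore not clear in sham.

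Ctsd, the aspartic protease, was not led by macrophages in TAC. There it stood at 828 CPM in NK cells (interval 754 to 906) and 506 in neutrophils, followed by fibroblasts (405) and T cells (399) with overlapping intervals, and macrophages had 347. In sham, macrophages led with 444, followed by fibroblasts at 222. The serine carboxypeptidase gene Ctsa was highest in macrophages (304 in TAC, 333 in sham) and monocytes (237 and 244), and stood between 49.6 and 120 in all other TAC types.

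Of the inhibitors, secreted cystatin C (Cst3) was highest in fibroblasts in TAC, at 5420 CPM, above macrophages at 3619 and monocytes at 3586, whose intervals overlapped. In sham, macrophages led with 4434, followed by fibroblasts at 3660 and monocytes at 2655. The cytosolic inhibitor Cstb was highest in macrophages (421 in TAC, 303 in sham) and monocytes (389 and 222), and TAC neutrophils (254) overlapped TAC fibroblasts (225).

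Lymphocyte barcodes carried much C1q. Taken over all sham barcodes, T cells had 67.2% of the macrophage level of C1q, NK cells 66.1% and B cells 75.4%, and 143 of 152 sham T cells passed the C1q limit. The macrophage level of each gene, scaled by this share of C1q, was compared with the observed level. Over the 10 genes, observed levels in sham T cells were 0.99 to 1.13 times the scaled level. This quotient was 0.89 to 1.23 in sham NK cells and 1.08 to 1.58 in sham B cells. In TAC T cells, with 57.8% of the macrophage level of C1q, it was 1.02 to 1.31 for 9 genes and 1.99 for Ctsd, and in TAC NK cells Ctsd reached 4.94. In fibroblasts it was 1.44 for Ctsc and 66.1 for Ctsl in TAC, and 0.86 for Ctsc and 26.4 for Ctsl in sham. The part of macrophage RNA in the lymphocyte levels was not tested.

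**Figure D2:**
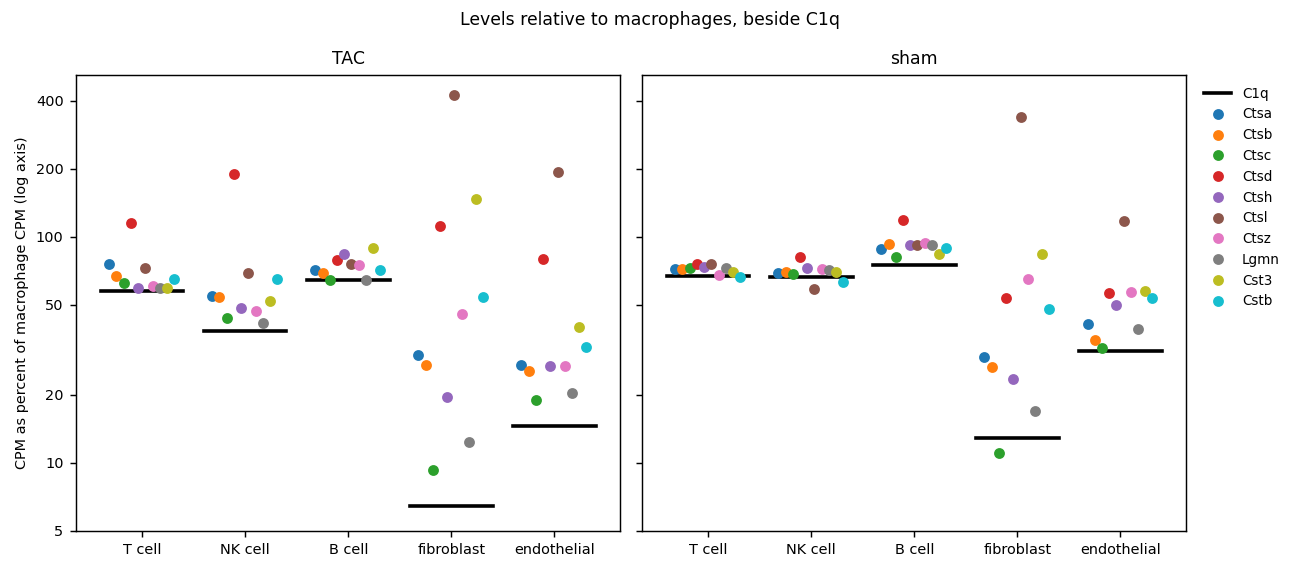
Level of each gene in 5 cell types as a percent of the macrophage level of the same library (y axis, log), TAC in the left panel and sham in the right, with the level of C1q on the same scale as a black line. In sham T and NK cells all 10 genes lie within a narrow band about the C1q line, while Ctsl in fibroblasts and Ctsd in TAC NK cells lie far above it.

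In macrophages, Ctsz was higher in TAC by more than 1.5-fold, the size used as a threshold, and the other 9 genes were within it. Of all 11545 genes with at least 50 UMIs in macrophages, 34.2% were past 1.5-fold, 13.7% higher and 20.5% lower in TAC. These shares include genes with as few as 50 UMIs, so 1 of 10 is not read as a result about the members. The median log2 ratio was -0.11 over the 10 genes and -0.08 over all genes. Ctsz had 932 CPM in TAC and 553 in sham macrophages, a ratio of 1.69 (interval 1.65 to 1.72). It stayed past 1.5-fold under all 12 alternatives of processing with this threshold, at ratios of 1.51 to 1.81.

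Of the 10 ratios in macrophages, 4 were above 1 and 6 below it. Besides Ctsz, the cytosolic inhibitor Cstb had 421 CPM in TAC and 303 in sham (ratio 1.39, interval 1.35 to 1.43). Ctsc had 1635 in TAC and 1288 in sham (1.27, interval 1.25 to 1.29), and Lgmn 806 in TAC and 682 in sham (1.18, 1.16 to 1.20). On the other side, Ctsd had 347 in TAC and 444 in sham (0.78, 0.76 to 0.80), the lowest ratio of the 10. Cst3 had 3619 in TAC and 4434 in sham (0.82, 0.81 to 0.82), and Ctsb 1674 in TAC and 1996 in sham (0.84, 0.83 to 0.85). Ctsl (0.85), Ctsa (0.91) and Ctsh (0.94) were closest to no difference from below. Macrophage C1q itself had 20792 CPM in TAC and 16923 in sham, and the median mitochondrial share was 4.70% in TAC and 8.28% in sham macrophages. Some of the small differences turned over with the processing: at a mitochondrial limit of 5%, which left 1426 TAC and 45 sham cells, the ratio was 1.26 for Ctsb and 1.17 for Ctsa, and with each library clustered alone it was 1.09 for Ctsd and 1.03 for Ctsl. Clustering each library alone also changed which cells were called macrophages, with sham totals given below. A cluster of 712 sham cells and 1 of 426 TAC cells then got no class name. Both had the resident genes Lyve1, Timd4 and Folr2 among their leading genes, so these ratios leave out many resident cells.

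**Figure D3:**
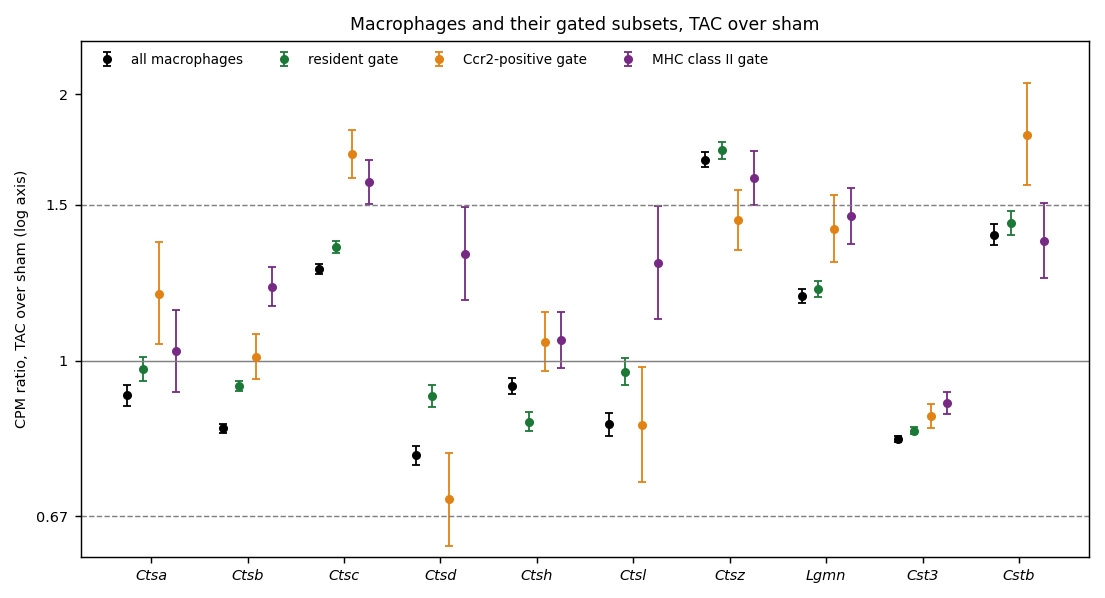
Ratio of CPM in TAC over sham (y axis, log) for each gene in all macrophages and in 3 gated subsets, with 95% counting intervals. Dashed lines mark 1.5-fold in each direction. Ctsz is at 1.69 in all macrophages, Ctsc and Cstb pass 1.5 in the Ccr2-positive gate, and Ctsc and Ctsz in the MHC class II gate.

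Macrophages were split by gates on single cells, in this order: resident cells by Lyve1, Folr2, Timd4 and Cd163 (together at least 5 UMIs per 10000), then Ccr2-positive cells (Ccr2, the receptor of monocyte-derived cells, at least 1 per 10000), then MHC class II cells (Cd74, H2-Aa, H2-Ab1 and H2-Eb1 together at least 20 per 10000). Resident cells made up 53.1% of TAC and 86.8% of sham macrophages, Ccr2-positive cells 14.8% and 4.74%, and MHC class II cells 30.5% and 7.01%. A gate is a range and not a type: 19.3% of TAC and 11.9% of sham macrophages lay between 3 and 10 resident UMIs per 10000.

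The gates differed most in Ctsb, Ctsd and Ctsl, which were richer in resident cells. In TAC, Ctsb had 1968 CPM in resident, 1068 in Ccr2-positive and 1450 in MHC class II cells. In sham it had 2100, 1057 and 1196 in the same order of gates. Ctsd had 416 in resident, 187 in Ccr2-positive and 276 in MHC class II cells of TAC, and 456, 269 and 209 in those of sham. Ctsl had 284, 145 and 186 in TAC and 292, 171 and 145 in sham. Ctsh was not richer in resident cells, with 526, 646 and 629 in TAC and 617, 616 and 596 in sham.

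In resident macrophages, 1 of 10 genes was past 1.5-fold, where 29.6% of all genes were (11.6% higher and 17.9% lower): Ctsz had 942 CPM in TAC and 545 in sham (1.73, interval 1.69 to 1.77). In Ccr2-positive macrophages, 2 of 10 were, where 30.7% of all genes were (16.3% higher and 14.4% lower). These were Cstb, with 348 in TAC and 194 in sham (1.80, 1.58 to 2.06), and Ctsc, with 1451 in TAC and 848 in sham (1.71, 1.61 to 1.82). Ctsd had 187 CPM in TAC and 269 in sham there (0.70, 0.62 to 0.79), but its ratio ran between 0.45 among cells with 5000 to 20000 UMIs and 1.73 with each library clustered alone, so its direction depended on the setting. In MHC class II macrophages, 2 of 10 were past it, where 34.6% of all genes were (19.3% higher and 15.3% lower). Ctsc had 1439 in TAC and 903 in sham (1.59, 1.5 to 1.69), and Ctsz 981 in TAC and 610 in sham (1.61, 1.5 to 1.73). In that gate 9 of the 10 ratios were above 1, the exception being Cst3 at 0.90, and the median log2 ratio was 0.38 over the 10 genes and 0.06 over all genes. This tally depended on the setting: Ctsd was at 0.72 among cells with 5000 to 20000 UMIs, Ctsl at 0.70 with marker gates, and Ctsa, at 1.02, kept its direction under 7 of 12 alternatives. With each library clustered alone, 6 genes were higher past 1.5-fold in the Ccr2-positive gate, where 32.2% of all genes were past it (17.2% higher and 15% lower). Under the same setting 6 were higher in the MHC class II gate, where 35.7% of all genes were past it (19.8% higher and 15.9% lower). That setting called 175 TAC cells led by Spp1, Gpnmb and Fabp5 macrophages. It left 161 sham cells led by Mmp12, Cd209a and Tnip3 without a class name. The 2 libraries thus gave unlike cells to these gates, and the part of this in the counts was not tested.

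The mix of subsets differed between the libraries, so ratios were also computed after reweighting. The part of the mix in the pooled ratios was not tested. With TAC macrophages reweighted to the subset mix of sham, the ratios were 0.95 for Ctsb, 0.91 for Ctsd and 0.98 for Ctsl, against 0.84, 0.78 and 0.85 as pooled. Ctsh moved the other way, to 0.88 against 0.94 as pooled, while Cst3 was at 0.84 against 0.82 and Ctsz at 1.70 against 1.69. Clusters 0, 1, 2 and 3 held at least 20 macrophages of each library. In all 4, Ctsl was higher in TAC, at ratios of 1.3 to 1.4 with intervals above 1, although the pooled ratio was below 1. In cluster 1, with the resident genes Lyve1, Folr2 and Cd163 among its leading genes, Ctsl had 441 CPM in TAC (94 cells) and 314 in sham (1412 cells). Ctsb was above 1 in 3 of the 4 clusters (0.98 to 1.14), and Ctsd ranged between 0.86 in the cycling cluster 3 and 1.46 in cluster 1.

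Cst3 was lower and Ctsc, Ctsz, Lgmn and Cstb higher in TAC in all 4 clusters, with intervals that left out 1. Ctsz was past 1.5-fold only in cluster 3 among them, with 795 CPM in TAC and 485 in sham (1.64, 1.54 to 1.74). In clusters 0, 1 and 2 its ratios were 1.31, 1.25 and 1.35, below the 1.69 of all macrophages. Clusters 12 and 13, which held most TAC macrophages, had 999 and 1013 CPM of Ctsz in TAC. Clusters group cells by transcriptome, so these ratios compare similar cells and not the whole of either group.

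**Figure D4:**
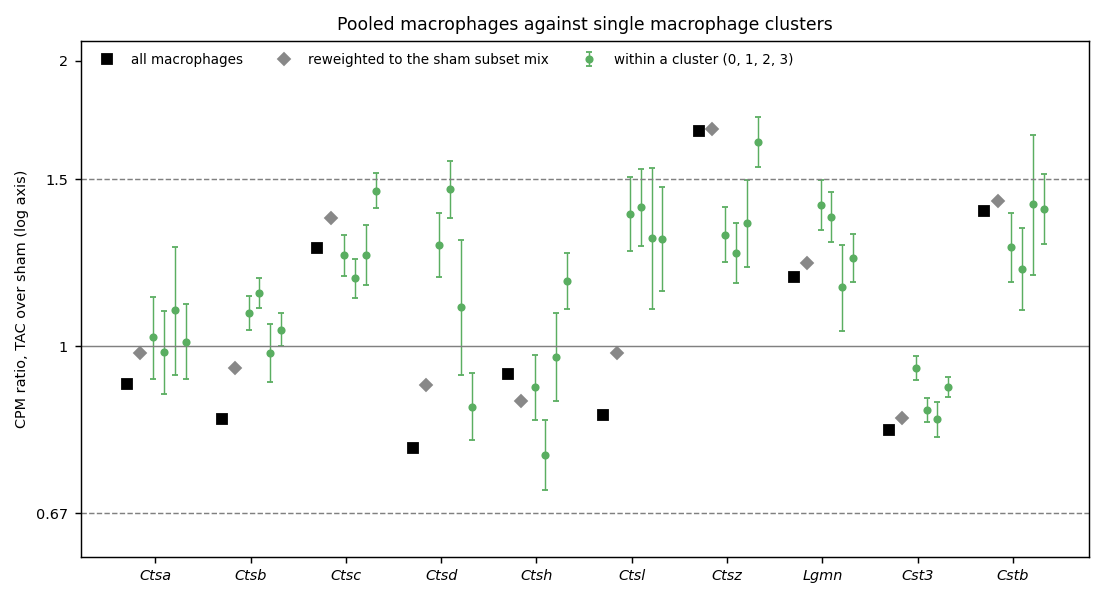
Ratio of CPM in TAC over sham (y axis, log) for each gene in all macrophages (black square), after reweighting TAC to the sham mix of subsets (grey diamond), and within clusters 0, 1, 2 and 3 in that order (green, 95% counting intervals). Dashed lines mark 1.5-fold. Ctsl is at 0.85 pooled but at 1.3 to 1.4 within the 4 clusters, and Ctsz is past 1.5 within cluster 3 only.

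Single macrophages varied widely for each gene. For Ctsz, the 10th, 50th and 90th percentiles over cells were 408, 853 and 1483 CPM in TAC and 168, 494 and 964 in sham, so the distribution was shifted as a whole but the libraries overlapped. For Ctsd they were 0, 146 and 665 in TAC and 0, 285 and 872 in sham. The median TAC cell thus lay further below the median sham cell for Ctsd than the summed levels of 347 in TAC and 444 in sham. Cst3 had the narrowest spread on a log scale, with 1830, 3441 and 5697 in TAC and 2298, 4294 and 7074 in sham. Median depth was 13801 UMIs in TAC and 8591 in sham macrophages, which sets how low a level above 0 a single cell can show.

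**Figure D5:**
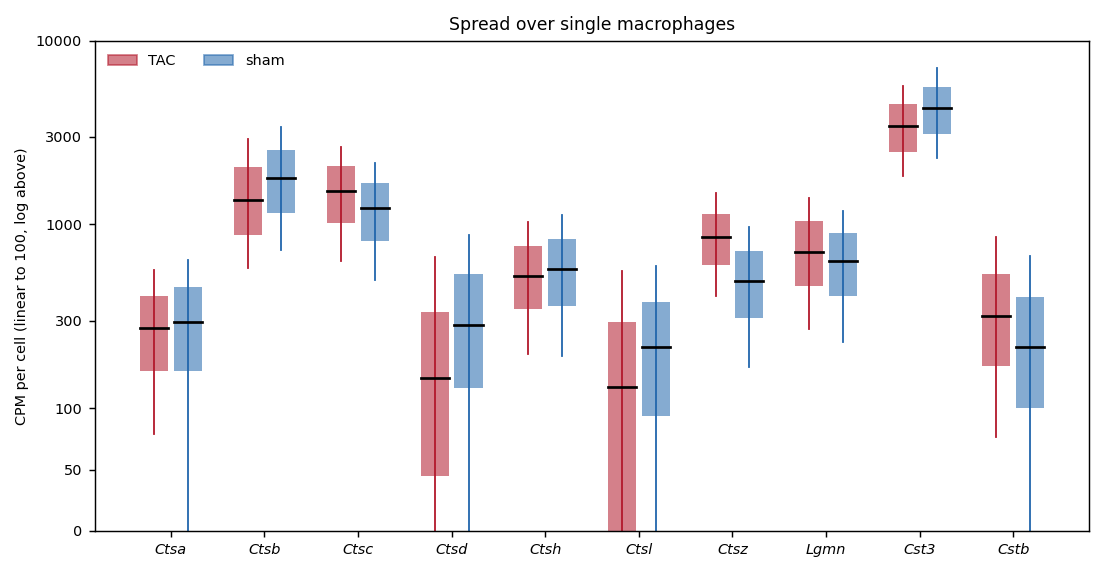
CPM of each gene in single macrophages (y axis, linear to 100 and log above), TAC in red on the left and sham in blue on the right: black lines are medians, boxes the 25th to 75th percentiles and thin lines the 10th to 90th. Ctsz medians are 853 in TAC and 494 in sham, and the boxes of all 10 genes overlap between libraries.

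Across single macrophages, Ctsb and Ctsd varied together most closely of all pairs, with a Spearman correlation of 0.55 in TAC (2528 cells) and 0.52 in sham (2723 cells). Ctsb also followed the summed resident genes, at 0.46 in TAC and 0.45 in sham. Ctsd ran against the summed MHC class II genes, at -0.48 in TAC and -0.39 in sham, and Ctsh ran with them, at 0.25 and 0.16. Ctsz followed neither sum, with -0.01 in TAC and 0.01 in sham for the resident genes. The genes of a cell share its depth, and these values are descriptions.

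In fibroblasts, 2 of 10 genes were past 1.5-fold, both higher in TAC, where 24.4% of all genes were past it, 9.0% higher and 15.4% lower. Ctsd had 389 CPM in TAC and 238 in sham (1.64, interval 1.48 to 1.81), and Cstb 228 in TAC and 145 in sham (1.57, 1.38 to 1.79). Secreted cystatin C was close behind, with 5331 CPM of Cst3 in TAC and 3711 in sham (1.44, 1.4 to 1.47). Over 10 alternatives its ratio ran between 0.996 at a mitochondrial limit of 5% and 1.67 among cells with 5000 to 20000 UMIs. The main fibroblast cathepsin, Ctsl, had 994 in TAC and 940 in sham (1.06, 1.0 to 1.12). C1q in fibroblasts was 1333 CPM in TAC and 2177 in sham. In C1q-low fibroblasts 4 of 10 genes passed 1.5-fold, all higher in TAC, where 23.7% of all genes were past it, 9.73% higher and 14.0% lower: Cstb (1.91), Ctsd (1.82), Lgmn (1.53) and Ctsc (1.51). The last of these rests on levels of 34.0 and 22.6 CPM. The summed fibroblast markers had 35584 CPM in TAC and 44195 in sham, and the summed neutrophil markers 578 and 2636; their part in these ratios was not tested.

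In endothelial cells, 5 of 10 genes were past 1.5-fold, all lower in TAC, where 26.5% of all genes were past it, 13.6% higher and 13% lower. Ctsh had 153 CPM in TAC and 307 in sham (0.50, interval 0.44 to 0.57), Cst3 1442 in TAC and 2542 in sham (0.57, 0.54 to 0.59), Ctsa 82.8 and 137 (0.60), Ctsb 425 and 696 (0.61) and Lgmn 165 and 266 (0.62). C1q had 3013 CPM in TAC and 5293 in sham endothelial cells. Of these cells, 38 of 408 in TAC and 43 of 112 in sham were C1q-rich. The part of macrophage RNA in the endothelial ratios was not tested. In C1q-low endothelial cells 1 of these 5 genes stayed past the threshold: Ctsh had 61.9 in TAC and 197 in sham (0.31, 0.25 to 0.4). There Cst3 was at 0.71, Ctsb at 0.83, Ctsa at 0.87 and Lgmn at 1.36. Cstb (1.73) and Ctsc (1.60, interval 0.99 to 2.73) passed 1.5-fold upward. In sham, 69 cells gave Cstb at 57.0 CPM (interval 39.2 to 80.0) and Ctsc and Lgmn at 32.8 each (19.8 to 51.2). In all, 3 of 10 genes were past the threshold, where 28.6% of all genes were (15.5% higher and 13.1% lower). Under marker gates on single barcodes, Ctsh too had a ratio of 1.13, so none of the 5 was past the threshold under every alternative run.

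In T cells, 1 of 10 genes was past 1.5-fold, where 35.5% of all genes were (19.4% higher and 16.1% lower): Ctsz had 567 CPM in TAC and 375 in sham (1.51, interval 1.41 to 1.63). It stayed past 1.5-fold under 2 of 8 alternatives. Cst3 had 2137 in TAC and 3102 in sham (0.69, 0.67 to 0.71). As given above, 9 members in TAC T cells and all 10 in sham T cells stood at 0.99 to 1.31 times the macrophage level scaled by C1q. The summed NK cell markers in T cells were 3857 CPM in TAC and 380 in sham, the neutrophil markers 6313 and 1381, and the T cell markers 3596 and 1708. Their part in the T cell ratios was not tested. Of sham T cells, 9 were C1q-low, too few for a comparison.

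Monocytes, with 69 sham cells, fell short of the 100 cells set for a comparison, and their values are given as a description. In all monocytes Ctsc had 1532 CPM in TAC and 839 in sham and Cstb 399 and 231, while Ctsa had 265 and 269. In C1q-low monocytes Ctsc had 1469 in TAC and 656 in sham, with intervals of 1428 to 1510 and 563 to 759. The neutrophil genes S100a8 and S100a9 together had 15611 CPM in TAC and 51.0 in sham C1q-low monocytes, and their part in the Ctsc values was not tested.

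The highest level of cystatin C RNA among the cell groups given here was in cells that resemble conventional dendritic cells. Cluster 10, led by Mmp12, Tnip3, Il7r and Fn1, met the rule of no class and held 268 TAC and 294 sham cells. At a finer resolution it broke up, and 46 TAC and 41 sham cells fell in a cluster led by Xcr1, Clec9a and Itgae, markers of dendritic cells that cross-present antigen. These had 24266 CPM of Cst3 in TAC (interval 23979 to 24555) and 17366 in sham (17081 to 17654), against 3619 and 4434 in macrophages. Their Ctsd was low, at 65.6 in TAC and 116 in sham, and their Lgmn was 229 and 244.

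The rest of cluster 10 was split by library. A finer cluster led by Spp1, Fabp5 and Gpnmb held 130 TAC and 8 sham of its cells, and one led by Cd209a, Mmp12 and Fn1 held 7 TAC and 218 sham cells. The 130 TAC cells had 3418 CPM of Ctsb, 1406 of Ctsd, 717 of Ctsl, 1223 of Lgmn, 1256 of Ctsz and 993 of Cstb, all above the levels of the 2528 TAC macrophages. Their Ctsc (1448) and Cst3 (2668) were below those of TAC macrophages, at 1635 and 3619, and their Ctsa (348) and Ctsh (790) above. The 218 sham cells had 1186 of Ctsb, 480 of Ctsd, 144 of Ctsl, 426 of Lgmn, 684 of Ctsz and 352 of Cstb. The ratios of cluster 10 as a whole, such as 2.93 for Ctsl and 2.04 for Lgmn, therefore compare different cells. Another finer cluster, led by Il1a, Tnip3 and Tnf, had 72 TAC cells with 862 CPM of Cstb and 282 of Ctsl.

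Clusters 16 and 18, led by Gm10260, Gpnmb and Syngr1, also met the rule of no class. Their cells were very deep, with a median of 38349 UMIs in cluster 16. Both had more Ctsl and less Ctsh and Ctsc than macrophages. Cluster 16 had 1954 CPM of Ctsl in TAC (69 cells) and 1607 in sham (128 cells), 47.8 and 34.4 of Ctsh, and 143 and 81.5 of Ctsc. Cluster 18 had 1336 CPM of Ctsl in TAC and 1425 in sham, 2.93 (4 UMIs) and 23.9 of Ctsh, and 43.2 and 67.0 of Ctsc. In cluster 16, Cstb was 1343 in TAC and 826 in sham, above that of all named classes, and Ctsz was 1616 in TAC and 1209 in sham. C1q was 1396 CPM in TAC and 798 in sham in cluster 16, far below macrophages, although 78.6% of the macrophage markers were detected in at least 50% of its cells.

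Genes of the wider lysosome were counted from lists, in macrophages and with the same threshold. The counts here and for the lists below stand beside 13.7% higher and 20.5% lower over all genes in macrophages. Of 20 lysosomal hydrolases and activators, 0 were higher and 3 lower in TAC: Gaa at 0.59, Man2b1 at 0.65 and Smpd1 at 0.66. Gaa encodes the glycogen-degrading acid glucosidase and Smpd1 acid sphingomyelinase. Npc2, which carries cholesterol out of the lysosome, stood at 1.48 (1096 CPM in TAC and 738 in sham). Of 16 membrane proteins and proton pump subunits, 0 were higher and 1 lower (Atp6v0d2, 51 UMIs in TAC and 111 in sham, ratio 0.31). The lists' median log2 ratios were -0.10 and -0.14, beside -0.08 over all genes.

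Among the cathepsins off the list, Ctss, the protease that degrades the invariant chain in antigen presentation, stood at 2744 CPM in TAC and 926 in sham (2.96, interval 2.92 to 3.0). Ctsf stood at 18.5 in TAC and 47.3 in sham (0.39, 0.36 to 0.43), and 4 of the 7 other cathepsins had under 50 UMIs. Of 5 measured other lysosomal peptidases, Cpq was higher (1.72) and Tpp1 (0.55), Prcp (0.60) and Dpp7 (0.67) were lower. Of the sorting receptors and lysosomal transcription factors, 3 of 9 were higher (Igf2r 1.98, from 53 UMIs in TAC and 18 in sham, Gnptab 1.53 and M6pr 1.51) and 2 lower (Mitf 0.54 and Tfe3 0.66).

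Of 11 other cystatins, stefins and serpins, 5 had at least 50 UMIs in macrophages, 3 of them higher and 1 lower in TAC. Serpina3g had 1313 UMIs in TAC and 4 in sham, at 33.3 and 0.151 CPM. Stfa2l1 had 261 UMIs in TAC and 9 in sham. Stefin A genes are near-identical copies whose reads may be shared, Stfa2l1 was among the leading genes of the neutrophil cluster 11, and the summed neutrophil markers in macrophages were 1868 CPM in TAC and 213 in sham. The part of neutrophil RNA in this value was not tested. Serpinb9, which inhibits granzyme B, was higher (3.20), and Serpinb1a lower (0.55).

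The genes whose level followed Ctsz most closely over 18 profiles (9 classes in each of the 2 libraries, 5049 genes compared by Pearson correlation of log2(CPM + 1)) were Erp29 (0.95), Capg (0.90) and Pak1 (0.89). For Ctsd, the member with the lowest macrophage ratio, they were Ndfip1 (0.89), Psenen (0.88) and Ppp1r35 (0.88). The profiles share libraries and, through C1q-rich barcodes, macrophage RNA.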

How the data were processed

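The deposited matrices hold raw UMI counts per gene and barcode, which the authors did not normalise. The submitters' processing notes name Cell Ranger 3.0 and mm10, and the cell calling is not stated there. Barcodes needed 300 genes or more and no more than 10% mitochondrial UMIs, which kept 5601 of 7975 in TAC and 4169 of 11941 in sham. Of the kept barcodes, 7 sequences occur in both libraries. Doublets were not removed, and no caller was run.

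The libraries were clustered jointly and without integration by the Leiden algorithm at resolution 1 (2000 variable genes without the 10 members and 69 related genes, 30 principal components, 15 neighbours; scanpy 1.11.5, scikit-learn 1.9.0, igraph 0.11.9, numpy 2.4.6, scipy 1.17.1, pandas 2.3.3, Python 3.11.15, matplotlib 3.10.9). A class name needed 3 or more of its markers in a cluster's top 10 genes by fold, and a lead over all other classes. Remaining clusters were called macrophages where 60% or more of the macrophage markers were detected in 50% or more of the cells, median C1q reached 20 per 10000 UMIs, and no other class had more leading markers or 50% of its markers. This rule was set after clusters were seen. The members, lists and markers were chosen with earlier results of these data known.

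UMIs were summed per class and library and scaled to CPM, with exact Poisson intervals. Ratios are TAC over sham with exact conditional binomial (Clopper-Pearson) intervals and no pseudocount. Comparisons needed 100 cells in both libraries. The background is all genes with 50 or more UMIs over both libraries, with 0.5 UMI added for log2 ratios. With 1 library per group no p-value was computed. The calculation was tested on simulated data. The rule named all members in every class, the extremes of each related list in macrophages (up to 2 on each side) and 3 genes by likeness for 2 members; other genes were named after their values were seen. A gene that the rule named among the related lists is not reported here. Planned searches of protein sequences were not run.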

Additional observations from a re-analysis of the deposited data

Results flagged for a closer look

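Some genes differed between TAC and sham in opposite directions in 2 cell types, with a ratio past 1.5-fold in one and a counting interval on the other side of 1 in the other. With 1 library per group, none of these differences between cell types was tested. Ctsd, the aspartic protease gene, had a ratio of 1.64 in fibroblasts and 0.781 in macrophages, and it was 1.82 in C1q-low fibroblasts. The macrophage ratio of Ctsd ran between 0.59 and 1.09 over 12 alternatives and was below 1 in 10 of them. Reweighted to the sham subset mix it was 0.91, and it was above 1 in 3 of the 4 clusters compared. Ctsz had ratios of 1.69 in macrophages and 1.51 in T cells, and 0.799 in endothelial cells. The T cell ratio of Ctsz stayed past 1.5-fold under 2 of 8 alternatives. Of the T cells, 215 of 302 in TAC and 143 of 152 in sham were C1q-rich. Ctsz had 567 CPM in all TAC T cells and 133 in the C1q-low ones, and C1q-low sham T cells were too few for a comparison. The part of macrophage RNA in the T cell ratio of Ctsz was not tested. Lgmn had a ratio of 0.62 in endothelial cells and 1.18 in macrophages, but 1.36 in C1q-low endothelial cells. Cst3 had a ratio of 0.567 in endothelial cells and 1.44 in fibroblasts, and 0.71 and 1.48 in the C1q-low cells of these types. At a mitochondrial limit of 5% the fibroblast ratio of Cst3 was 0.996.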

How the results depend on the processing

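No paired analysis was possible because each group is 1 library, which also leaves no replicate to leave out. Among members past 1.5-fold, macrophages held 1, and 2 among cells with 5000 to 20000 UMIs, 3 at a mitochondrial limit of 5% (which left 1426 TAC and 45 sham cells) and 2 with each library clustered alone. T cells held 1, and 3, 2 and 0 under the same settings. Fibroblasts held 2, and 1 by the mean of per-cell CPM, 4 after thinning to 1000 UMIs, 4 at 5000 to 20000 UMIs, 5 at the 5% limit, 4 without C1q-rich barcodes and 4 with marker gates. Endothelial cells held 5, and 8 at 5000 to 20000 UMIs, 3 without C1q-rich barcodes, 2 with each library clustered alone and 2 with marker gates. The log2 ratio of Lgmn there became 0.45 without C1q-rich barcodes and 0.084 with marker gates, and that of Ctsh 0.18 with marker gates. Resident macrophages held 1, and 2 at the 5% limit. Ccr2-positive macrophages held 2, and 4 by the mean of per-cell CPM, 5 after thinning, 5 at 5000 to 20000 UMIs and 6 with each library clustered alone. MHC class II macrophages held 2, and 1 with a total that left out mitochondrial and ribosomal protein genes, 6 with each library clustered alone and 4 with cluster 10 counted as macrophages, a setting chosen after seeing the data. At a threshold of 2-fold, endothelial cells held 1 and all other classes and gates 0. The cause of these differences was not tested. The share of all genes past the threshold was computed at the main setting and for C1q-low fibroblasts and endothelial cells. It was also computed for the Ccr2-positive and MHC class II gates with each library clustered alone. Under the other settings no such share was computed, so these counts are not read as results about the members. Clustered alone and at resolution 2, the sham macrophages numbered 1921 and 2033, fewer than at the main setting. At resolution 2 a cluster of 74 TAC and 626 sham cells, with Lyve1 and Folr2 among its leading genes, got no class name. Not run for too few cells were the 5% limit in endothelial cells and in the Ccr2-positive and MHC class II gates, and in T cells the setting without C1q-rich barcodes and the marker gates. Depth limits the levels of Ctsc, Lgmn and Ctsh outside phagocytes, which rest on few UMIs.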
